A study of Homo sapiens with 3 samples.

Results

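Long noncoding RNAs (lncRNAs) of the nucleus and of the prostate were followed in single cells of 2 prostate cancer cell lines. The 8 genes, of 33423 in the 3 count files, were chosen by name: MALAT1, NEAT1, PCA3, PCGEM1, ARLNC1, PCAT1, SCHLAP1 and DRAIC. Levels and detection were taken in every library, and a gene with no row in a file was counted as 0. All 8 had a row in VCaP parental and in LNCaP–ENZ168, and 7 had one in VCaP–ENZ48, where PCGEM1 was missing.

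Drop-seq libraries were made from VCaP and LNCaP, both labelled as sensitive to enzalutamide (ENZ), a drug given against prostate cancer that blocks androgen signalling. VCaP parental had been kept for 48 h in 0.1% DMSO, the vehicle, VCaP–ENZ48 for 48 h in 10 µM ENZ and LNCaP–ENZ168 for 168 h in 10 µM ENZ. Each group was 1 library of 1 established line, so no difference has a replicate check, no test was made, and every interval is a 95% interval that covers counting error only. The drug and any difference in preparation cannot be told apart between the VCaP libraries, and between VCaP–ENZ48 and LNCaP–ENZ168 the line, the time and the preparation cannot be told apart.

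The kept cells numbered 944 to 997 per library and held 6313283 UMIs (unique molecular identifiers, 1 for each captured molecule) in LNCaP–ENZ168, 14301287 in VCaP–ENZ48 and 19515202 in VCaP parental. The median cell held 5389, 11224 and 17817 UMIs in the same order, and libraries shared 0 barcodes. An undetermined base (N) stood in the barcode of 859 of 997 VCaP parental cells, 820 of 947 VCaP–ENZ48 cells and 205 of 944 LNCaP–ENZ168 cells. ERG, which VCaP expresses from a gene fusion, was at 105 and 57.1 CPM (UMIs scaled to a common library total) in VCaP parental and VCaP–ENZ48 and at 0 UMIs in LNCaP–ENZ168. Luminal prostate markers were measured in all libraries, among them KRT8 at 98.4 to 208 CPM, HOXB13 at 189.9 to 389.8 CPM and FOLH1 at 315 to 1009 CPM. Of the 12 immune, fibroblast and endothelial markers, TYROBP, COL1A2 and CDH5 had no row and were counted as 0. Summed immune markers were at 0.154 to 0.475 CPM and endothelial markers at 0 to 2.06 CPM, with CD74 at 2 UMIs in each library, LAPTM5 at 0 to 1, PECAM1 at 0 to 2 and VWF at 0 to 13. Fibroblast markers summed to 6.81 to 26.4 CPM, which was LUM in the VCaP libraries and COL3A1 in LNCaP–ENZ168 for the greater part.

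LncRNAs are transcripts that are not translated into protein, and many act in the nucleus. MALAT1 gathers in nuclear speckles, where splicing factors are stored, and NEAT1 is the scaffold of paraspeckles, nuclear bodies that hold RNA-binding proteins. Several other lncRNAs are nearly restricted to the prostate or its cancers, some of them under control of androgen, and have been studied as markers of disease.

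Capture in Drop-seq starts from a stretch of A, either a poly(A) tail or a run of A inside a transcript. MALAT1 ends in a triple helix and not in a conventional poly(A) tail, while NEAT1 is made as a short polyadenylated and a long form that the counts do not separate. The longest run of A in the longest annotated transcript is shown for both of these and for 2 prostate lncRNAs, because it is a place where capture can begin. The run is in capitals, with up to 10 bases on each side, 5′ to 3′, from the Gencode transcripts on GRCh38 (MALAT1 chr11:65506088-65506120, NEAT1 chr11:65440833-65440874, SCHLAP1 chr2:180916581-180916617, PCA3 chr9:76787548-76787569, all on the + strand and exonic).
MALAT1: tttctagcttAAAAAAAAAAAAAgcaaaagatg
NEAT1: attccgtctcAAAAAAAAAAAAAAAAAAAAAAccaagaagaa
SCHLAP1: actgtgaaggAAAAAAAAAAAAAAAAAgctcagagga
PCA3: agtaaaatttAAAAAAAAgtga
The run is 13 bases in MALAT1, 1963 bases before the end of an annotated transcript of 10434 bases. The annotated end need not be that of the mature RNA, which ends in the triple helix. The run is therefore not placed inside or at the end of the mature RNA. In NEAT1 it is 22 bases, 4676 bases before the end of 22743 bases, and the transcript holds 6 runs of at least 8 A. SCHLAP1 has a run of 17 bases, 332 bases before its end, and PCA3 a run of 8 bases that stops 4 bases before its end. DRAIC, with a transcript of 9011 bases, has no run of 8 or more. The files do not record from which stretch a UMI came.

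Starts of transcription are shown for 3 genes whose levels are described below, MALAT1, PCA3 and DRAIC, as 250 bases before to 50 after a RefSeq start (GRCh38.p14, + strand). RefSeq promoters were matched for 4 of the 8 genes, 6 promoters in all. The motif searched on both strands was AGAACA, which on the other strand is read as TGTTCT, the core letters of hormone response elements, and its matches are in capitals. The first sequence is the second MALAT1 start (chr11:65498795-65499094), followed by PCA3 (chr9:76764186-76764485) and DRAIC (chr15:69561470-69561769).
MALAT1: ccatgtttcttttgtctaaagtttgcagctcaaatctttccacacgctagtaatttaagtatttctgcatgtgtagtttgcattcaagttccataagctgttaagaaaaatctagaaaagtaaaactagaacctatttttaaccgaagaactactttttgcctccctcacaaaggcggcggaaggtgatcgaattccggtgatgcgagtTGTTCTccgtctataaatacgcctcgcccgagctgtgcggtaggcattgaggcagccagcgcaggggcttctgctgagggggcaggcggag
PCA3: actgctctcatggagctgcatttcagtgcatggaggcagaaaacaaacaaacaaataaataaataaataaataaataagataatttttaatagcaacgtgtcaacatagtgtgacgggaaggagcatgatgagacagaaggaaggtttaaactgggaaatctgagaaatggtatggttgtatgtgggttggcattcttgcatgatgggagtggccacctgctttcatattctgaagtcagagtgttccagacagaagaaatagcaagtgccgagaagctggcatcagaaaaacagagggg
DRAIC: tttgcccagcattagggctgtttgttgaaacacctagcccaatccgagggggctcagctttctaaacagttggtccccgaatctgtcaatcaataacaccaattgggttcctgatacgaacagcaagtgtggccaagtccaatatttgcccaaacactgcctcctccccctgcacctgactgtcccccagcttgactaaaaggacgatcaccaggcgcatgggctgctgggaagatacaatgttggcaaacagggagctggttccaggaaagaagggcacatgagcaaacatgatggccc
The MALAT1 window held 1 match and the PCA3 and DRAIC windows 0, while 14.8% of 35116 promoters of that length held at least 1. The other promoter of MALAT1 held 0 and that of PCGEM1 held 1. A forkhead motif (TGTTTAC, or on the other strand GTAAACA) and an E-box (CACGTG) were in none of the 6 promoters, and in 3.42% and 7.26% of all promoters. A match describes letters in a window and not a bound site.

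PCA3 was past 2-fold between the VCaP libraries, and MALAT1, NEAT1, PCAT1 and SCHLAP1 were between LNCaP–ENZ168 and VCaP–ENZ48. A gene was counted past 2-fold when its CPM ratio was at least 2 or at most 0.5, and 6 of the 8 members had the 30 UMIs needed. Between VCaP–ENZ48 and VCaP parental 0 of the 6 were higher, where 20.8% of 15430 genes were, and 1 (PCA3) was lower, where 5.94% were. Between LNCaP–ENZ168 and VCaP–ENZ48 1 of the 6 (SCHLAP1) was higher, where 34.3% of 15079 genes were, and 3 (MALAT1, NEAT1 and PCAT1) were lower, where 22% were. Counts over 6 members beside these shares are a description and no result about the lncRNAs as a group. The comparisons share VCaP–ENZ48. Without barcodes that hold an N, which differ in number between these libraries, MALAT1 was at a log2 ratio of -0.89 between LNCaP–ENZ168 and VCaP–ENZ48 and the count past 2-fold was 3 in place of 4. Of 6 members each, the median log2 ratio was -0.15 beside 0.20 over all genes in the first, and -0.42 beside 0.51 in the second.

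**Figure D1:**
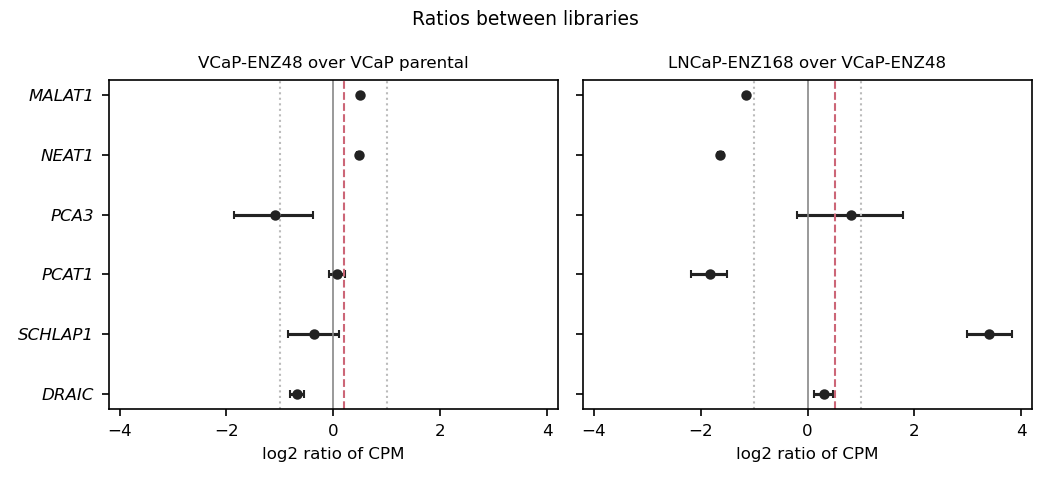
Log2 ratio of CPM with its 95% counting interval for the 6 lncRNAs with at least 30 UMIs in a pair, VCaP–ENZ48 over VCaP parental (left) and LNCaP–ENZ168 over VCaP–ENZ48 (right). Dotted lines mark 2-fold, the solid line equal levels and the dashed line the median of all genes (0.20 and 0.51); SCHLAP1 at 3.39 is the highest point.

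MALAT1 lies on chromosome 11 (GRCh38 chr11:65497640-65508073, + strand). MALAT1 was the gene with the most UMIs in both VCaP libraries and the second in LNCaP–ENZ168, as UMIs per gene that were not scaled per length. Its level was 44632 CPM in VCaP parental (95% interval 44539 to 44726), 63406 CPM in VCaP–ENZ48 (63275 to 63536) and 28539 CPM in LNCaP–ENZ168 (28408 to 28671). It thus took 4.46%, 6.34% and 2.85% of all UMIs in that order, and every kept cell of the 3 libraries had a MALAT1 UMI. VCaP–ENZ48 was the highest and LNCaP–ENZ168 the lowest, with intervals that did not overlap.

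NEAT1 lies on the same chromosome (chr11:65422774-65445540, + strand) and ranked the libraries in the same order. Its level was 1512 CPM (1495 to 1530) in VCaP parental, 2099 CPM (2076 to 2123) in VCaP–ENZ48 and 678 CPM (658 to 699) in LNCaP–ENZ168. A NEAT1 UMI was found in 99.5%, 98.8% and 91.3% of cells. After each cell was thinned to 2000 UMIs, to set depth equal, the shares were 85.9% (exact binomial 83.5 to 88.0%), 95.2% (93.6 to 96.5%) and 68.6% (65.5 to 71.6%). A second random thinning gave 89.1%, 94.4% and 68.6%, the first of which lay outside its interval. The intervals thus leave out the error of the thinning itself. The order of VCaP parental and VCaP–ENZ48 in the thinned shares was therefore that of the CPM and not that of the unthinned shares.

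Between the VCaP libraries both nuclear-body RNAs were higher with ENZ, by similar amounts when UMIs were summed over cells. In library sums the log2 ratio of CPM, VCaP–ENZ48 over VCaP parental, was 0.51 (0.50 to 0.51) for MALAT1 and 0.47 (0.45 to 0.50) for NEAT1. The median of all genes was 0.20. Relative to that median the values were 0.31 and 0.28, with 64.1% and 62.8% of the genes below them. There were 29.5 MALAT1 UMIs per NEAT1 UMI in VCaP parental (29.2 to 29.9), 30.2 in VCaP–ENZ48 (29.9 to 30.6) and 42.1 in LNCaP–ENZ168 (40.8 to 43.4). The proportion of the pair in these sums was thus close in the VCaP libraries, but the log2 ratios were less alike in shallow cells. In the shallowest of 4 equal classes of cells by UMIs they were 1.20 for MALAT1 and 0.71 for NEAT1. In the deepest class they were 0.27 and 0.34. The proportion in sums tilted to MALAT1 in LNCaP–ENZ168, in which both were lower. LNCaP–ENZ168 also had the lowest median depth, and the part of depth in this tilt was not tested. LNCaP–ENZ168 over VCaP–ENZ48, the log2 ratio was -1.15 (-1.16 to -1.14) for MALAT1 and -1.63 (-1.68 to -1.58) for NEAT1.

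**Figure D2:**
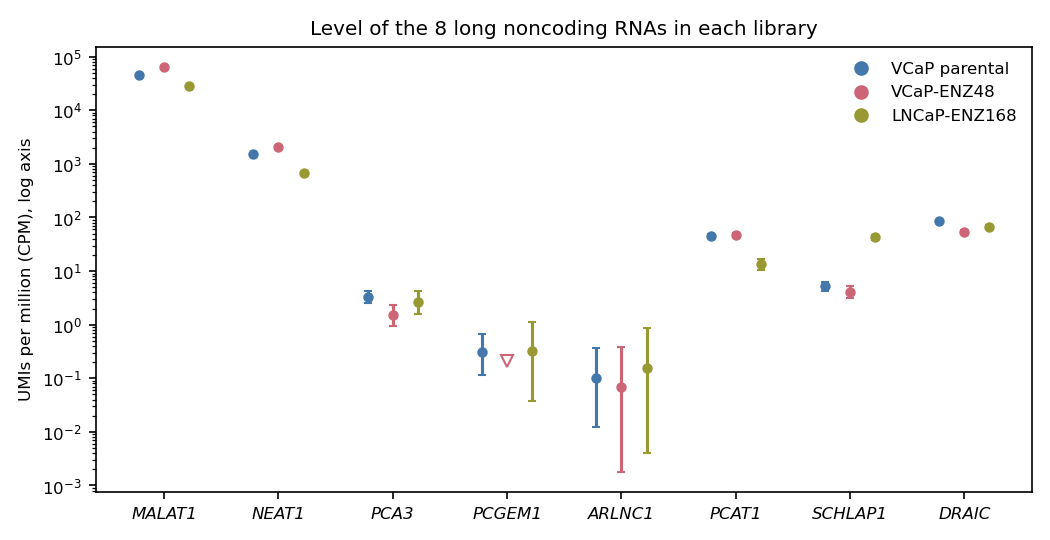
CPM (log axis) of the 8 lncRNAs in the 3 libraries, with exact Poisson 95% intervals for counting error. The open triangle for PCGEM1 in VCaP–ENZ48 marks the limit that 0 UMIs allows. MALAT1 spans 28539 to 63406 CPM and NEAT1 678 to 2099 CPM, while PCGEM1 and ARLNC1 stay below 1 CPM.

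The share of UMIs that MALAT1 took differed widely from cell to cell. In VCaP parental the median cell gave MALAT1 4.30% of its UMIs, with 5% of cells at or below 2.07% and 5% at or above 7.61%. In VCaP–ENZ48 the median was 7.07% and the same limits were 2.67% and 17.0%. In LNCaP–ENZ168 they were 2.64%, 0.969% and 6.04%. The upper tail was thus longest in VCaP–ENZ48, and the ranges of the 3 libraries overlapped. NEAT1 took 0.128% of the UMIs of the median VCaP parental cell, 0.159% in VCaP–ENZ48 and 0.0574% in LNCaP–ENZ168.

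**Figure D3:**
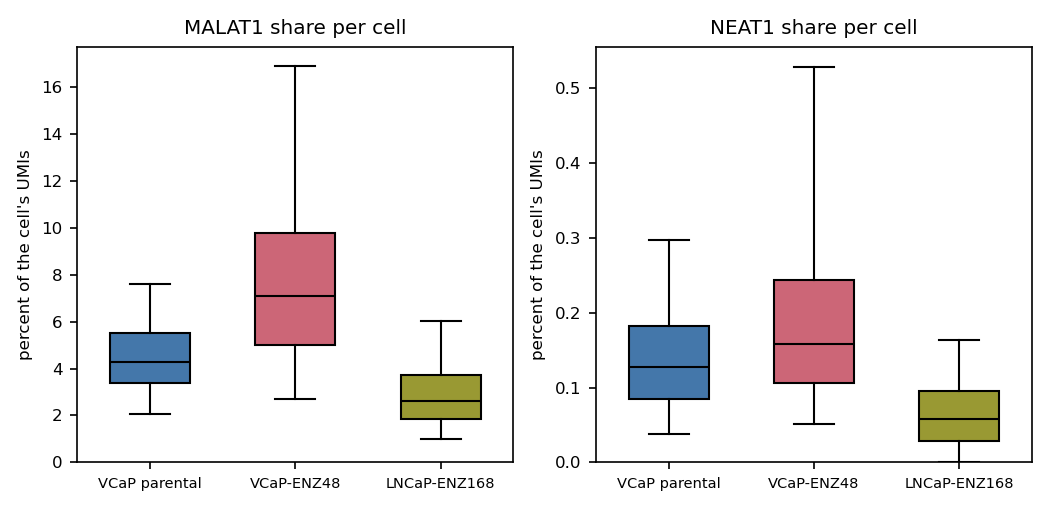
Percent of each kept cell's UMIs taken by MALAT1 (left) and NEAT1 (right) in each library. The line is the median, the box holds the middle 50% of cells and the whiskers reach the 5th and 95th percentiles, which for MALAT1 were 2.67% and 17.0% in VCaP–ENZ48 and 2.07% and 7.61% in VCaP parental.

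MALAT1 was higher in the shallow cells of VCaP–ENZ48 than in its deep cells, and NEAT1 was not. Cells of each library were put into 4 classes of equal size by their UMIs. From the shallowest to the deepest class of VCaP–ENZ48, whose median cells held 3788, 8138, 14937 and 29181 UMIs, MALAT1 was at 104650, 88290, 70082 and 49671 CPM. The classes of VCaP parental, with medians of 11777, 15993, 19964 and 28431 UMIs, had 45457, 46601, 47897 and 41172 CPM. MALAT1 was thus lower in each deeper class of VCaP–ENZ48, was lowest in the deepest class of VCaP parental, and lay closest between the libraries in their deepest classes, which had similar depth. There the log2 ratio was 0.27 (0.26 to 0.28), and in cells of 10000 to 20000 UMIs it was 0.61 (0.60 to 0.62).

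NEAT1 in the same classes of VCaP–ENZ48 was at 2067, 2080, 2079 and 2117 CPM, and in VCaP parental at 1265, 1393, 1496 and 1676 CPM. It was thus flat over depth with ENZ and higher in deeper cells without it. Its log2 ratio was 0.34 (0.30 to 0.37) in the deepest classes and 0.57 (0.53 to 0.62) in cells of 10000 to 20000 UMIs. In LNCaP–ENZ168 the shallowest class had 36193 CPM of MALAT1 and the other classes 26624 to 27637 CPM.

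**Figure D4:**
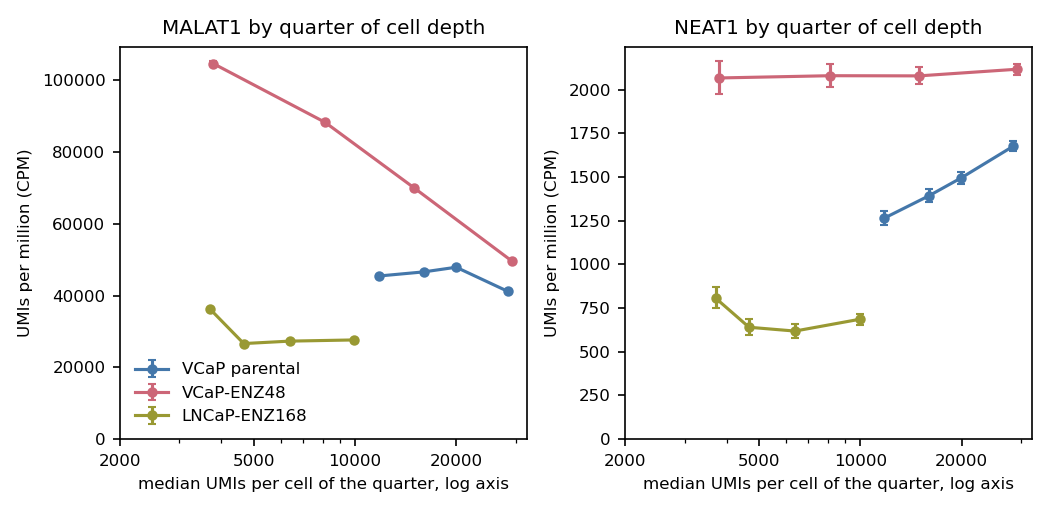
MALAT1 (left) and NEAT1 (right) CPM in 4 equal classes of cells by depth, plotted against the median UMIs per cell of the class (log axis), with exact Poisson 95% intervals. MALAT1 runs from 104650 down to 49671 CPM in VCaP–ENZ48, while NEAT1 stays between 2067 and 2117 CPM.

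Mitochondrial and barcode measures moved with MALAT1 as well. In VCaP–ENZ48 the 316 cells with the highest mitochondrial share, whose median depth was 6883 UMIs, had 75182 CPM of MALAT1, against 60835 and 58013 CPM in the lower classes. Cells with an N in the barcode had 66094 CPM, at a median of 10604 UMIs, and the 127 cells without had 53045 CPM, at 21506 UMIs. The part of these measures in the result was not tested. Without any barcode that held an N, MALAT1 and NEAT1 were still higher in VCaP–ENZ48, with log2 ratios of 0.30 for both.

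Across thinned cells of a library, MALAT1 and NEAT1 were each other's most alike gene by the lowest of the 3 Spearman correlations, among 1055 genes of at least 100 CPM in every library. The correlation was 0.34 over 997 VCaP parental cells, 0.32 over 917 VCaP–ENZ48 cells and 0.21 over 943 LNCaP–ENZ168 cells, and it is a description of cells that share a library. The next genes for MALAT1 were the mitochondrial ribosomal RNA MT-RNR2 (0.22, 0.50 and 0.21) and AKAP9, which codes for a centrosome and Golgi anchoring protein (0.16, 0.32 and 0.20). The most opposed were the ribosomal protein genes RPLP0 (-0.21, -0.47 and -0.30), RPS3 and RPS4X. For NEAT1 the next genes, TM7SF2 and STEAP2, reached at most 0.13, and the most opposed were RPL15, RAN and RPL14.

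In LNCaP–ENZ168 both RNAs were lower in cells with more UMIs of G2M genes, a list expressed in dividing cells. Cells with 0, 1 to 4 and 5 or more such UMIs after thinning numbered 22, 492 and 429. MALAT1 was at 36866, 31139 and 25217 CPM in that order, and NEAT1 at 924, 765 and 570 CPM. SCHLAP1 followed the same order, with 81.9, 46.3 and 36.7 CPM from 11, 151 and 107 UMIs. In VCaP–ENZ48 MALAT1 did not follow it, with 62971, 64120 and 58751 CPM in 110, 690 and 117 cells. NEAT1 did not either, with 2200, 2086 and 2100 CPM. In VCaP parental, with 11, 232 and 754 cells, both RNAs followed the order. There MALAT1 was at 50483, 46031 and 44156 CPM and NEAT1 at 1887, 1669 and 1463 CPM. The VCaP libraries thus differed in these classes, with 5 or more G2M UMIs in 754 of 997 thinned cells without ENZ and 117 of 917 with it. Within the class of 1 to 4 such UMIs MALAT1 was still higher in VCaP–ENZ48, and NEAT1 was at 1669 CPM in VCaP parental and 2086 CPM in VCaP–ENZ48. In the class of 5 or more NEAT1 was at 1463 and 2100 CPM.

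Most genes of protein partners of these nuclear bodies were at lower ratios than their RNAs between the VCaP libraries. Of 11 paraspeckle protein genes tested, 1 was above and 10 were below a ratio of 1 in VCaP–ENZ48 over VCaP parental. Of all genes 39.6% were below a log2 ratio of -0.004. The median log2 ratio of the 11 was -0.53 beside 0.20 over all genes. Of the 11, 0 were past 2-fold, where 20.8% of 15430 genes were higher and 5.94% lower. No list was tested against all genes. HNRNPH3, which codes for an RNA-binding protein, was at 273 and 145 CPM, and NONO, a core paraspeckle protein, at 184 and 163 CPM. The one above 1 was HNRNPK, the highest of the list in CPM, at 381 and 427 CPM (log2 ratio 0.16, 0.11 to 0.21). NUDT21, which codes for a cleavage factor of polyadenylation, was at 64.3 and 39.5 CPM, and RBM14 at 30.9 and 19.2 CPM. All 7 genes of speckle proteins and of MALAT1 end processing were below 1, with a median of -0.39 and 0 past 2-fold. Among them SON, a core speckle protein, was at 923 and 611 CPM, and the splicing factor gene SRSF2 at 223 and 123 CPM. SRRM1 and SRRM2, splicing-related speckle genes, were at 396 and 302 CPM and at 72.6 and 49.1 CPM.

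Of 3 lncRNAs known for regulation by androgen, PCA3 alone had enough UMIs to compare. PCA3, measured in urine as a marker of prostate cancer, lies on chr9:76691980-76863307 (+ strand) within the gene PRUNE2 on the opposite strand. It had 64 UMIs in VCaP parental, 22 in VCaP–ENZ48 and 17 in LNCaP–ENZ168, or 3.28 CPM (2.53 to 4.19), 1.54 CPM (0.964 to 2.33) and 2.69 CPM (1.57 to 4.31). VCaP–ENZ48 was the lowest, at 2.13-fold below VCaP parental (log2 ratio -1.09, -1.86 to -0.37), and its interval did not overlap that of VCaP parental. The interval of LNCaP–ENZ168 overlapped both. Over 13 settings that gave a value, the log2 ratio between the VCaP libraries ran from -1.38 to -0.75, and the ratio no longer passed 2-fold in several of them. No cell had more than 2 PCA3 UMIs, and cells with any were 6.02%, 2.22% and 1.80% of the libraries. After thinning these shares were 0.401%, 0.436% and 0.636%, from so few cells that they set no order.

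PRUNE2 moved by nearly the same ratio as PCA3. It was at 108, 52.9 and 95.04 CPM in VCaP parental, VCaP–ENZ48 and LNCaP–ENZ168, a log2 ratio of -1.03 (-1.15 to -0.91) between the VCaP libraries. There were 32.95 PRUNE2 UMIs per PCA3 UMI in VCaP parental (25.7 to 43.0), 34.4 in VCaP–ENZ48 (22.5 to 55.2) and 35.3 in LNCaP–ENZ168 (21.9 to 61.0). The proportion of the overlapping pair therefore did not differ beyond its counting error between libraries. Whether counting used the strand is not stated in the sources used here beyond default settings, so reads of the pair may not be fully told apart.

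PCGEM1 and ARLNC1 were at or near the limit of detection. PCGEM1, a transcript nearly restricted to the prostate (chr2:192749845-192776899, + strand), had 6 UMIs in 3 cells of VCaP parental, 0 in VCaP–ENZ48 and 2 UMIs in 1 cell of LNCaP–ENZ168. ARLNC1, an androgen-regulated transcript (chr16:80826074-80892682, - strand), had 2, 1 and 1 UMIs. A count of 0 allows up to 0.154 CPM in VCaP parental, 0.210 CPM in VCaP–ENZ48 and 0.475 CPM in LNCaP–ENZ168. No difference between libraries was detectable at this depth for either gene.

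Other androgen-regulated genes went both ways between the VCaP libraries. Of 6 such genes 3 were past 2-fold lower, where 5.94% of 15430 genes were, and 0 were higher, where 20.8% were. Their median log2 ratio was -0.89 beside 0.20 over all genes. FKBP5, an androgen-induced gene that codes for a co-chaperone, was at 66.9 and 23.8 CPM in VCaP parental and VCaP–ENZ48, PMEPA1 at 212 and 98.5 CPM and SLC45A3 at 96.1 and 22.9 CPM. KLK2, a kallikrein gene, was higher with ENZ, at 1554 and 3053 CPM. In all, 4 of the 6 were below a ratio of 1 and 2 above it, and PCA3 was below. Of all genes 39.6% were below a log2 ratio of -0.004.

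DRAIC was the prostate lncRNA whose level was lower with ENZ from enough UMIs for a narrow interval. It lies on chr15:69462921-69843120 (+ strand) and is known as a transcript lost in androgen-independent cells that binds the IKK complex. DRAIC was at 85.7 CPM (81.7 to 89.9) in VCaP parental, 53.5 CPM (49.8 to 57.4) in VCaP–ENZ48 and 66.1 CPM (59.9 to 72.7) in LNCaP–ENZ168. The 3 intervals did not overlap, with VCaP parental highest and VCaP–ENZ48 lowest. The log2 ratio between the VCaP libraries was -0.68 (-0.81 to -0.56), or -0.88 relative to the median of all genes, with 11.1% of the genes below it. Over 16 settings the log2 ratio ran from -0.97 to -0.44, past its counting interval on both sides.

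The lower DRAIC level stood in every class of depth. From the shallowest to the deepest class the log2 ratios, VCaP–ENZ48 over VCaP parental, were -0.87, -0.94, -0.34 and -0.75, and in cells of 10000 to 20000 UMIs the ratio was -0.61 (-0.83 to -0.39). The thinned share of cells with a DRAIC UMI was 14.9% (12.8 to 17.3%) in VCaP parental, 9.38% (7.57 to 11.5%) in VCaP–ENZ48 and 13.3% (11.2 to 15.6%) in LNCaP–ENZ168. The intervals of the VCaP libraries did not overlap, and that of LNCaP–ENZ168 met both. LNCaP–ENZ168 over VCaP–ENZ48 the log2 ratio was 0.30 (0.13 to 0.48), below the median of all genes in that comparison, and it was below 0 when libraries were scaled by TMM factors (-0.23) or by median-of-ratios (-0.19). By G2M UMIs, DRAIC was at 115 and 52.2 CPM in VCaP parental and VCaP–ENZ48 in the class of 1 to 4, and at 77.3 and 44.3 CPM in the class of 5 or more, so it was lower with ENZ in both. In the class of 0 it was at 97.7 CPM (58.8 to 153) and 71.6 CPM (59.8 to 85.1), and these intervals overlapped. The VCaP parental value there came from 19 UMIs in 11 cells. CHUK, which codes for a subunit of IKK, was at 11.5 CPM in VCaP parental and 6.71 CPM in VCaP–ENZ48.

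PCAT1 was lower in LNCaP–ENZ168 than in either VCaP library. PCAT1, a transcript of the chromosome 8 region near MYC that is known to promote growth of prostate cancer cells (chr8:126556323-127419050, + strand), had 882, 675 and 84 UMIs in VCaP parental, VCaP–ENZ48 and LNCaP–ENZ168. The levels were 45.2 CPM (42.3 to 48.3), 47.2 CPM (43.7 to 50.9) and 13.3 CPM (10.6 to 16.5). Between the VCaP libraries the log2 ratio was 0.06 (-0.08 to 0.21), and it was -0.23 with TMM factors, so its sign was set by the scaling. It differed by class of depth, with log2 ratios of 0.11 (-0.45 to 0.64), -0.17 (-0.58 to 0.23), 0.57 (0.29 to 0.85) and -0.21 (-0.42 to 0.01) from the shallowest to the deepest class, and was 0.26 (0.01 to 0.51) in cells of 10000 to 20000 UMIs. Over all cells the ratio was thus within counting error of 1, while in cells of that depth and in 1 class it was above. LNCaP–ENZ168 was 3.55-fold below VCaP–ENZ48 (log2 ratio -1.83, -2.17 to -1.50).

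PCAT1 UMIs were concentrated in few cells of the VCaP libraries. In VCaP parental 36 of 997 cells (3.61%) had 5 or more PCAT1 UMIs and held 35.1% of all of them, while 584 cells had 0. In VCaP–ENZ48 22 of 947 cells (2.32%) held 44.3%, and 662 cells had 0. Of these, 11 cells of VCaP parental and 12 of VCaP–ENZ48 had at least 10 UMIs, up to 28 and 34 in 1 cell. In LNCaP–ENZ168 no cell had more than 3.

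The PCAT1-rich cells spanned a wide range of depth. Those with at least 10 PCAT1 UMIs had 10124 to 38205 UMIs in all in VCaP parental and 12230 to 97230 in VCaP–ENZ48, and PCAT1 made up 288 to 2766 and 103 to 1741 CPM of them. Their barcodes differed from each other by at least 4 bases within each library. After thinning, the variance of PCAT1 counts over cells was 1.58 times the mean in VCaP parental and 1.66 times in VCaP–ENZ48. Genes with a mean close to its own had a median of 1.02 in both, and 969 of 970 and 1149 of 1153 of them were below PCAT1. DRAIC had 1.05 and 1.01 in these libraries, so its UMIs were spread over cells about as those of other genes. In VCaP parental 1 cell held 8 of the 108 thinned PCAT1 UMIs, and every other cell held 3 or fewer. The value of 1.58 and its rank thus leaned on 1 cell. They also came from 1 random thinning. A second thinning moved the share of VCaP parental cells with a PCAT1 UMI from 9.33% to 6.22%. In VCaP–ENZ48 the highest thinned cell held 5 of 83 PCAT1 UMIs.

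Cells with 5 or more PCAT1 UMIs, a class set after the values were seen, had more NEAT1 than cells with 0. The class was set on UMIs before thinning, so deeper cells enter it more readily. In VCaP parental their median depth was 25848 UMIs, against 16730 in cells with 0, and NEAT1 was at 2043 and 1398 CPM and DRAIC at 127 and 78.0 CPM. In VCaP–ENZ48 the depths were 23832 and 8900 UMIs, with NEAT1 at 2641 and 2076 CPM and DRAIC at 64.7 and 53.4 CPM. NEAT1 was thus higher in PCAT1-rich cells of both libraries, and the part of depth was not tested. LRATD2 and PRNCR1, which overlap the PCAT1 span, were at 24.7 and 3.96 CPM in the PCAT1-rich cells of VCaP parental and at 14.9 and 0.949 CPM in those with 0, from 25 and 4 UMIs in the former. CASC19, which overlaps the span too, had 0 UMIs in the former and was at 0.664 CPM in the latter. In VCaP–ENZ48 LRATD2 was at 21.1 and 18.4 CPM, PRNCR1 at 10.5 and 3.06 CPM and CASC19 at 3.01 and 2.04 CPM. For each of these genes the counting intervals of the classes overlapped in both libraries.

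**Figure D5:**
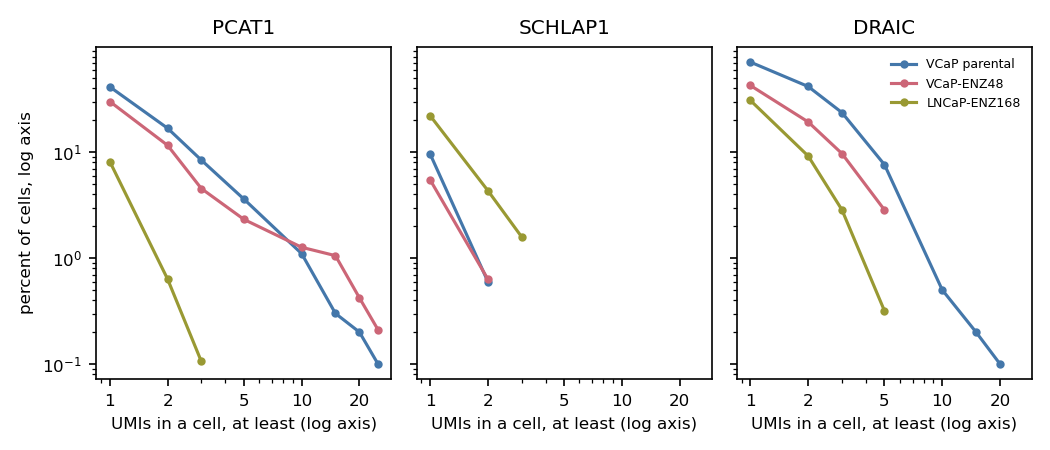
Percent of cells (log axis) with at least a given number of UMIs (log axis) of PCAT1, SCHLAP1 and DRAIC in each library, before thinning, so that the lines also depend on depth. PCAT1 reaches 25 UMIs or more in both VCaP libraries, whereas SCHLAP1 stays below 5 in every library.

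SCHLAP1 was higher in LNCaP–ENZ168 than in either VCaP library. SCHLAP1, known from aggressive prostate cancer and as an antagonist of the SWI/SNF chromatin remodelling complex (chr2:180692104-180916939, + strand), had 102 UMIs in VCaP parental, 58 in VCaP–ENZ48 and 269 in LNCaP–ENZ168. These were 5.23 CPM (4.26 to 6.35), 4.06 CPM (3.08 to 5.24) and 42.6 CPM (37.7 to 48.0). The VCaP intervals overlapped each other, and LNCaP–ENZ168 was 10.5-fold above VCaP–ENZ48 (log2 ratio 3.39, 2.98 to 3.83). The thinned share of cells with a UMI was 0.903% (0.414 to 1.71%), 0.982% (0.450 to 1.86%) and 8.27% (6.59 to 10.2%). No LNCaP–ENZ168 cell had more than 4 SCHLAP1 UMIs, and the variance over thinned cells was 1.06 times the mean, beside a median of 1.02 over genes of like level. SCHLAP1 was thus found thinly over many LNCaP cells and not in a few rich ones. The nearest counted gene above it on chromosome 2 was UBE2E3, which codes for a ubiquitin-conjugating enzyme. UBE2E3 lies 50309 bases away on the same strand and was at 30.1, 18.7 and 128 CPM in the same order. The nearest below, CWC22, was at 45.7, 34.3 and 49.9 CPM.

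Changes of library scaling moved these medians. With TMM factors the median of all genes was -0.09 between the VCaP libraries and -0.02 between LNCaP–ENZ168 and VCaP–ENZ48, and with median-of-ratios -0.03 and 0.02, so values relative to the median are given. In the second comparison they were -1.66 for MALAT1, -2.14 for NEAT1, 0.30 for PCA3, -2.34 for PCAT1, 2.88 for SCHLAP1 and -0.21 for DRAIC. In the first they were -1.29 for PCA3, -0.13 for PCAT1 and -0.56 for SCHLAP1, beside the values for MALAT1, NEAT1 and DRAIC given with their levels.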

How the data were processed

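Drop-seq libraries of VCaP parental, VCaP–ENZ48 and LNCaP–ENZ168 were analysed, 1 per group, as the labels assign them. The authors aligned reads to GRCh38 with STAR and made the count tables with Picard and the Drop-seq tools at default parameters, on Gencode genes and with 1000 cells expected from each sample. What they deposited are raw counts of UMIs, a gene by a cell barcode, with no cell filter stated. Such beads capture A-rich stretches, so that RNAs without a poly(A) tail and isoforms with a common end are counted with less certainty.

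Barcodes below 300 genes or 500 UMIs, or with over 25% of their UMIs from mitochondrial genes, were dropped, which left 997, 947 and 944 of 1000 barcodes in the order above. Doublets were not removed, and an alternative left out the 7, 86 and 40 cells above 3 times the median depth. No other cell type or empty barcode was at hand to measure free RNA. UMIs were summed over cells and divided by the library total (CPM). Sums carry exact Poisson intervals, shares exact Clopper-Pearson intervals and ratios exact conditional intervals, all at 95% and for counting error only. A count of 0 was given the limit of 3 counts. Shares of cells were also taken after thinning each cell to 2000 UMIs. For this, 30 VCaP–ENZ48 cells and 1 LNCaP–ENZ168 cell were too shallow. Ratios used genes with at least 30 UMIs over a pair.

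The lncRNAs and 12 lists of other genes were chosen with earlier results of these data known. The text names all 8 lncRNAs, the genes that overlap or neighbour them, the genes most like MALAT1 and NEAT1 over cells, and, of each list, the 2 highest genes and up to 3 with the largest ratios between the VCaP libraries, except for a listed gene not reported here. Overlapping and nearest genes were sought only among genes with a row in the count files. Annotated genes without a row may lie closer. Overlapping or nearest genes of low count are given together. Sequences and coordinates came from Gencode and RefSeq on GRCh38, in a later Gencode release than the authors used. Alternatives covered the cell filter, barcodes, weighting, scaling, pseudocount, UMI minimum and thinning. On library sums simulated as Poisson counts, the interval of the ratio held the true value in 95.8% of 15523 genes in the comparison within VCaP. It did so in 95.8% of 15010 genes in the comparison of the ENZ libraries. This checks the computation only, because the interval assumes such counts. In the data the variance of MALAT1 over thinned cells was 15.7, 49.2 and 20 times its mean in VCaP parental, VCaP–ENZ48 and LNCaP–ENZ168. TMM factors came from edgeR 4.0.16 and G2M genes from Seurat 5.3.0 in R 4.3.3. All else was computed in Python 3.11.15 (scipy 1.17.1, numpy 2.4.6, pandas 2.3.3), with figures by matplotlib 3.10.9.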

Additional observations from a re-analysis of the deposited data

How the results depend on the processing

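MALAT1 and NEAT1 were higher in VCaP–ENZ48 than in VCaP parental under every alternative tried, but their log2 ratios of 0.51 and 0.47 moved. For MALAT1 and NEAT1 in turn they were 0.44 and 0.44 with at most 15% mitochondrial UMIs, 0.65 and 0.40 without barcodes above 3 times the median depth, 0.30 and 0.30 without barcodes that hold an N, and 0.81 and 0.50 with cells weighted equally. They were 0.22 and 0.18 with TMM scaling, 0.28 and 0.24 with median-of-ratios scaling, 0.62 and 0.59 with totals without mitochondrial and ribosomal protein genes, and 0.54 and 0.50 with totals without MALAT1. With no cell filter MALAT1 was at 0.52. In settings chosen after the data were seen they were 0.32 and 0.22 in cells without a G2M UMI (11 VCaP parental and 110 VCaP–ENZ48 cells), 0.56 and 0.51 with only barcodes that hold an N, and 0.61 and 0.57 in cells of 10000 to 20000 UMIs. The count of 1 member past 2-fold between the VCaP libraries, PCA3, was 0 without barcodes that hold an N, with equal weights, with totals without mitochondrial and ribosomal protein genes, with CPM + 1, with at least 100 UMIs and in cells without a G2M UMI. PCA3 was below the UMI minimum under the first and the last 2 of these settings. The count of 4 between LNCaP–ENZ168 and VCaP–ENZ48 was 2 in cells without a G2M UMI, where SCHLAP1 had too few UMIs and MALAT1 was at -0.77, and it was 3 without barcodes that hold an N, where MALAT1 was at -0.89. The cause of the moves of MALAT1 was not tested. DRAIC between the VCaP libraries, at -0.68, moved to -0.44 without barcodes that hold an N and -0.45 in cells without a G2M UMI. It moved to -0.97 with TMM and -0.91 with median-of-ratios, and it stayed below 0 in every setting. The log2 ratio of PCAT1 between the VCaP libraries reversed to -0.23 with TMM, -0.17 with median-of-ratios and -0.17 in cells without a G2M UMI, and that of DRAIC between LNCaP–ENZ168 and VCaP–ENZ48 reversed to -0.23 and -0.19 with both scalings. For the log2 ratios as a whole, 109 values under an alternative stayed within their counting interval, 55 moved out of it and 5 reversed. Thinned shares were also taken at 1000 and 4000 UMIs per cell and with a second random thinning. Of these values 46 stayed within their interval and 26 moved out of it.

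No paired analysis was possible because only 1 library was made per group. Depth limits PCGEM1, ARLNC1 and PCA3 in each library, of which no more than 64 UMIs were counted.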

Other observations

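Other lncRNAs, whether of the prostate, nuclear or general, went both ways between the VCaP libraries. Of 11 other prostate lncRNAs with enough UMIs, 2 were past 2-fold higher in VCaP–ENZ48 and 1 lower, with a median log2 ratio of 0.65 beside 0.20 over all genes. The shares over all genes were 20.8% higher and 5.94% lower, which bounds what these counts and those of the next lists can show. No list was tested against all genes. PCAT14 was at 110 CPM in VCaP parental, 278 CPM in VCaP–ENZ48 and 0.158 CPM in LNCaP–ENZ168, the last from 1 UMI. PCAT19 was at 87.2, 99.5 and 1.11 CPM in the same order. Both were thus found in VCaP and nearly absent from LNCaP–ENZ168. SOCS2-AS1 was at 1.23, 3.57 and 3.01 CPM and TMPO-AS1, antisense to a nuclear lamina gene, at 3.89, 1.40 and 5.39 CPM. Of 15 other lncRNAs, a list of nuclear and of general ones, 4 were past 2-fold higher and 0 lower, with a median of 0.36. MIR99AHG, the host of a microRNA cluster, was at 121, 361 and 268 CPM, and FTX, a transcript of the X-inactivation centre, at 47.6, 136 and 93.5 CPM. MIR17HG was at 1.95, 6.57 and 0.9504 CPM and NORAD, a cytoplasmic lncRNA, at 111, 132 and 177 CPM. Of all genes 39.6% were below a log2 ratio of -0.004 between the VCaP libraries. Of 17 lncRNAs that host small nucleolar RNAs, 11 were above and 6 below a ratio of 1. None of the 17 was past 2-fold either way. Among them GAS5 was at 1519, 2539 and 977 CPM and SNHG29 at 1835, 1801 and 1313 CPM. SNHG32 was at 221, 439.8 and 143 CPM and EPB41L4A-AS1 at 131, 218 and 108 CPM.

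Genes beside the lncRNAs differed between libraries as well. TMEFF2 codes for a transmembrane protein of prostate and brain. It is the nearest counted gene below PCGEM1, at 554912 bases. TMEFF2 was at 176 CPM in VCaP parental, 12.4 CPM in VCaP–ENZ48 and 118 CPM in LNCaP–ENZ168. CMC2, 73766 bases from ARLNC1, was at 126, 36.0 and 86.3 CPM, and CDYL2, 21476 bases from it on the other side, at 1.54, 1.82 and 12.0 CPM. TMEFF2 and CMC2 were lowest in VCaP–ENZ48 and CDYL2 was not, and the lncRNAs beside them were too sparse to compare. RPLP1, a ribosomal protein gene 6716 bases from DRAIC, was at 9147, 8855 and 2819 CPM, and TLE3, which codes for a transcriptional corepressor on its other side, at 29.7, 29.9 and 87.0 CPM. Neither followed the order of DRAIC. FRMD8, beside NEAT1, was at 8.97, 6.92 and 9.98 CPM and GCNT1, beside PCA3, at 15.5, 26.0 and 36.3 CPM. The overlapping or nearest genes not named were below 4 CPM in every library.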
